A study of Zea mays with 10 samples.

Results

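F7025 and Cm484 were the 2 most alike of 5 inbred maize lines whose stem RNA was profiled on arrays, and the genes that still separated them are described here. The comparison used every array labelled with either line, which gave 4 of the 10 arrays of the series, 2 per line. Inbred lines are made by selfing over many generations until plants of a line are genetically alike. F7025 came from the cross IodentXF113bm3, and Cm484 came from 200-2-1. Both were Flint-Dent in grain type, grew untreated, and were sampled as stem on the same day. The 3 lines used as a frame were F7033, from (LorenaXF252)XF252 (Flint-Dent), F98902, from Iodent (Dent), and F2, from lacaune (Flint). Each array held RNA of a pool of 5 plants. The pools are called repetitions, with no word on separate plots, so the spread between pools of a line may be technical. The p-values set differences against that spread, estimated from all 5 lines. The bm3 mutation hits caffeic acid O-methyltransferase, which acts in making lignin, and whether F7025 carries it is not stated. The amounts of RNA listed were 60 and 60 µg for F7025 and 90 and 20 µg for Cm484.

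Maize stems gain stiffness from secondary walls, which are laid down inside the primary wall in vessels, fibres and rind cells. Their cellulose is made at the plasma membrane by complexes of cellulose synthases, and their lignin is made from phenylalanine through enzymes that include phenylalanine ammonia-lyase, 4-coumarate-CoA ligase, cinnamoyl-CoA reductase and cinnamyl alcohol dehydrogenase. Laccases and peroxidases then couple the monomers in the wall. How much of the wall is lignified bears on how well stems are digested, which is the trait behind the series.

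All values are log2 GCRMA values, in which 1 unit is a doubling of probe signal and dim probe sets gather near 2. A probe set, the group of probes that reads 1 transcript, was kept if it reached 4 on at least 2 of the 4 arrays, which left 10382 of 17555 without controls. Called means an adjusted p under 0.05 in a limma fit over all 10 arrays. Of the kept probe sets 1856 were called (17.9%), with 883 higher in F7025 (8.51%) and 973 higher in Cm484 (9.37%). The median size of a called difference was 1.04 on the log2 scale, and the largest was 8.39. Every called probe set had both arrays of 1 line above both of the other, but so did 61.6% of all kept probe sets. Under the same test F7025 differed from F7033 at 41.4% of probe sets, from F98902 at 41.5% and from F2 at 42.2%. Cm484 differed from F7033 at 43.9%, from F98902 at 38.5% and from F2 at 40.1%. The 3 other lines differed from each other at 44.6% (F7033 and F98902), 38.8% (F7033 and F2) and 41.5% (F98902 and F2). F7025 and F98902 both descend from Iodent by their labels, but their count was near that of lines with no shared name.

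**Figure D1:**
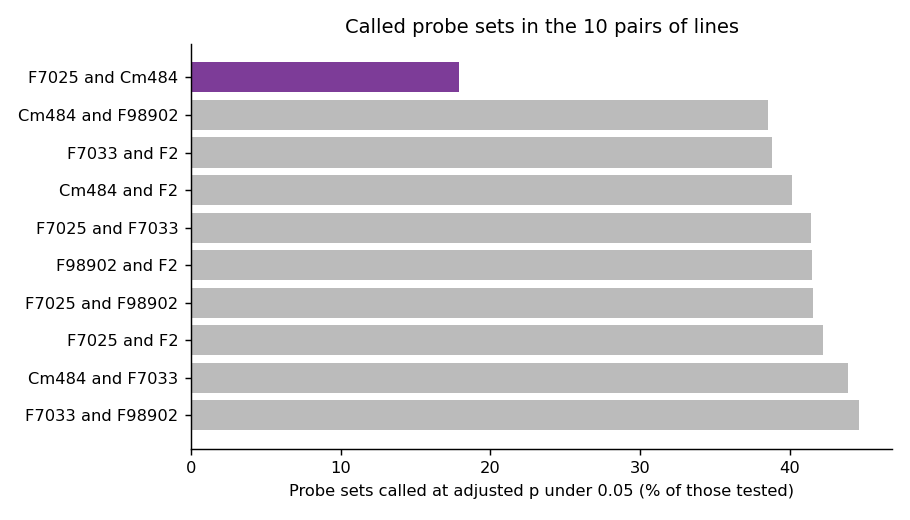
Percent of tested probe sets called between lines (adjusted p under 0.05, limma) for the 10 pairs of lines, with F7025 and Cm484 in purple. The pair stands at 17.9%, and the other 9 pairs lie between 38.5% and 44.6%.

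The line means of F7025 and Cm484 correlated at r = 0.913 across the kept probe sets, against 0.831 to 0.849 for 8 of the other pairs and 0.830 for F7033 and F98902. Probe sets are not independent replicates, and these values are descriptions. The 2 Cm484 arrays correlated at 0.986 and the 2 F7025 arrays at 0.976. F7025 array 1 lay farther from Cm484 (r = 0.894 and 0.889) than F7025 array 2 did (r = 0.919 and 0.915). How many probe sets were called depended on single arrays: 1010 without F7025 array 1, 1038 without Cm484 array 1 and 892 without Cm484 array 2, but 2335 without F7025 array 2. Of the 1856 calls, 727 were made whichever of the 4 arrays was left out. On-off contrasts were present as well: both F7025 arrays were at 6 or more and both Cm484 arrays under 4 at 47 probe sets (0.453%), and the reverse held at 48 (0.462%).

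**Figure D2:**
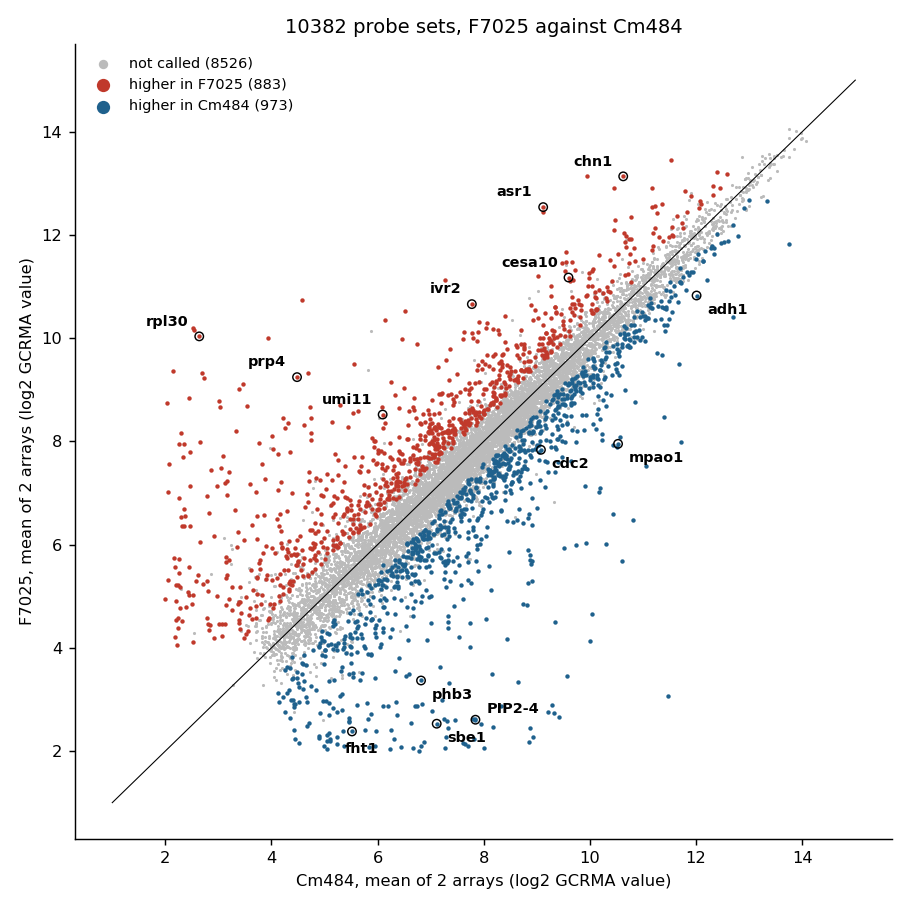
Mean log2 GCRMA value of the 2 arrays in F7025 against Cm484 for 10382 probe sets, with called probe sets in red (883, higher in F7025) and blue (973, higher in Cm484) and equality as the line. The named circles include rpl30, bright in F7025 and under 4 in Cm484, and PIP2-4, sbe1 and phb3, which show the reverse.

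The annotation named 1108 genes, of which 775 passed the filter, and 147 of these were called, where 17.9% of all probe sets were. Higher in F7025 were 75, and higher in Cm484 were 72. All 8 stem vascular and sclerenchyma markers were at 4 or more on all 4 arrays, as were all 7 markers of dividing cells and 12 of the 13 of green tissue. All 4 pollen markers were under 4 throughout, as were 9 of 11 kernel markers, with gz27 and bt2 as the exceptions, and the root markers nas1 and nas2. The other root marker, ys1, was under 4 on the F7025 arrays (2.76 and 3.22) but not on the Cm484 arrays (4.69 and 4.03). The mean log2 value over the vascular markers was 11.33 and 11.04 on the F7025 arrays and 10.47 and 10.61 on the Cm484 arrays. Its members were not alike: cesa10, cesa11, CesA12, cncr1 and 4CL were called higher in F7025, pal3 and bm1 were not called, and LAC1 was called higher in Cm484 (5.68 and 6.003 against 6.86 and 7.33). The mean over the dividing-cell markers was 6.96 and 6.89 in F7025 and 7.53 and 7.34 in Cm484. There kn1, lg3, cdc2 and cycD2 were called higher in Cm484, pcna1 stood at 6.23 and 6.70 against 6.99 and 6.97, and the histone genes his1 (5.88 and 5.86 against 5.81 and 5.50) and his2b5 (6.41 and 5.58 against 6.27 and 5.24) had the higher mean in F7025. The list means did not overlap between the lines in either list, and they did overlap for green tissue (10.53 and 10.88 against 10.47 and 10.69). Single probe sets did not overlap at 61.6% of all those kept, so a lack of overlap was common. All 8 vascular markers, and kn1, lg3, cdc2 and cycD2 among the dividing-cell markers, also belong to the gene lists described below. The stems were whole tissue, so fewer cells of a type and less RNA per cell cannot be told apart, and the part of these marker differences in the gene differences below was not tested.

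The widest gap at a named gene was that of rpl30, which codes for a protein of the large ribosomal subunit. It measured 9.90 and 10.17 on the F7025 arrays and 2.68 and 2.60 on the Cm484 arrays. Cm484 stood alone here, since the means were 8.26 in F7033, 9.85 in F98902 and 9.61 in F2, and the gene was at least 65.6-fold higher in F7025 (log2 difference 7.40 ± 0.19 SE, adjusted p = 1.52e-07). A line mean under 4 was set to 4 for such bounds. Where both arrays of 1 line read under 4, a probe set passed the filter only through the other line, which fixed its direction. Among the leading genes higher in F7025 this held at rpl30, gar2, TLA1, piip2, LOC542088 and LOC542630. Among those higher in Cm484 it held at PIP2-4, sbe1, phb3 and fht1. A sequence difference at the probes and a lower transcript level cannot be told apart on this array, here or at any other probe set, dim or bright. Bright probe sets of 1 gene could also disagree, as at aoc1 and mir3_541655 below. The other 18 tested ribosomal protein genes did not share this gap: 3 were called, all higher in Cm484. With rpl30 the list had 21.1% called, near the 17.9% of all kept probe sets, and 9.37% of all were called higher in Cm484. The list's median difference was -0.33, against -0.05 over all kept probe sets. RPL10 stood at 11.48 and 11.76 against 12.04 and 12.04, rps21b at 9.30 and 9.85 against 10.11 and 10.33 and rpp2a-4 at 10.03 and 10.73 against 11.58 and 11.40, where the first 2 values are F7025 and the last 2 Cm484. All 19 ribosomal genes read lower on F7025 array 1 than on array 2. rps21b and RPL10 missed the threshold without F7025 array 1 (adjusted p 0.172 to 0.232), rpp2a-4, rps21b and RPL10 without Cm484 array 1 (adjusted p 0.0507 to 0.142), and rps21b and RPL10 without Cm484 array 2 (adjusted p 0.143 to 0.223). Fitted on the 4 arrays of the pair alone, rpp2a-4, rps21b and RPL10 missed it too (adjusted p 0.0568 to 0.14). Leaving out an array of another line did the same, namely either F7033 array for rps21b and RPL10 (adjusted p 0.0548 to 0.0748) and either F2 array for rps21b and RPL10 (adjusted p 0.0696 to 0.0795).

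Several of the 15 leading genes on the F7025 side are known for defence or stress. The pathogenesis-related gene prp4 (synonym PR-1) gave 9.53 and 8.96 on the F7025 arrays and 4.84 and 4.12 on the Cm484 arrays, which is 27.2-fold higher in F7025 (log2 difference 4.76 ± 0.46 SE, adjusted p = 0.000237). Its probe set shares probes with other transcripts, so the reading may mix genes. asr1, an abscisic acid, stress and ripening gene, gave 12.57 and 12.50 on the F7025 arrays and 9.13 and 9.11 on the Cm484 arrays. Cm484 was again the line apart, with means of 13.39 in F7033, 13.21 in F98902 and 13.41 in F2, and asr1 was 10.7-fold higher in F7025 (log2 difference 3.42 ± 0.09 SE, adjusted p = 2e-07). A second probe set of asr1 gave a smaller difference, 10.74 and 10.88 against 9.89 and 8.65 (log2 difference 1.545, adjusted p = 0.0131). The chitinase gene chn1, whose enzyme attacks fungal walls, stood at 13.16 and 13.11 on the F7025 arrays and 10.82 and 10.44 on the Cm484 arrays, and F7025 alone was raised over means of 11.004 in F7033, 10.94 in F98902 and 10.07 in F2 (5.69-fold higher in F7025, adjusted p = 5.13e-05). umi11, which carries the synonym cyclotide, gave 8.30 and 8.74 on the F7025 arrays and 5.93 and 6.26 on the Cm484 arrays, and the other 3 lines were near the floor at 2.68 in F7033, 2.43 in F98902 and 2.72 in F2. Both lines of the pair thus expressed a gene at or near the floor elsewhere, F7025 5.37-fold more (log2 difference 2.43 ± 0.20 SE, adjusted p = 9.03e-05). The glutathione transferase gene gst2, for an enzyme that couples glutathione to toxins, gave 10.59 and 10.03 on the F7025 arrays and 7.91 and 7.93 on the Cm484 arrays (5.24-fold higher in F7025, adjusted p = 0.000551). hsp22, a small heat shock protein gene, gave 8.83 and 8.48 on the F7025 arrays and 5.97 and 6.83 on the Cm484 arrays (4.76-fold higher in F7025, adjusted p = 0.00197).

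Metabolic genes led as well. The vacuolar invertase gene ivr2, whose enzyme splits sucrose, stood at 10.85 and 10.47 on the F7025 arrays and 7.54 and 8.01 on the Cm484 arrays. F98902 came near F7025 with a mean of 10.35, and ivr2 was 7.38-fold higher in F7025 (log2 difference 2.88 ± 0.24 SE, adjusted p = 9.02e-05). GLN6, a glutamine synthetase gene, gave 10.05 and 10.54 on the F7025 arrays and 7.72 and 8.40 on the Cm484 arrays, with Cm484 the lowest of the 5 lines (4.7-fold higher in F7025, adjusted p = 0.000688). gar2 gave 8.98 and 5.99 on the F7025 arrays and 3.06 and 3.05 on the Cm484 arrays, and the F7025 arrays were 3 units apart (at least 11.2-fold higher in F7025, log2 difference 4.43 ± 1.003 SE, adjusted p = 0.0187). TLA1 gave 4.90 and 4.99 on the F7025 arrays and 1.99 and 1.98 on the Cm484 arrays (at least 1.92-fold higher in F7025, adjusted p = 9.45e-06), and piip2 gave 5.48 and 5.01 on the F7025 arrays and 2.68 and 2.75 on the Cm484 arrays (at least 2.37-fold higher in F7025, adjusted p = 0.0288). Without a readable name were LOC100037814 at 8.62 and 8.14 against 5.38 and 4.91, LOC542088 at 6.51 and 5.99 against 3.42 and 3.32 and LOC542630 at 5.68 and 4.90 against 2.86 and 2.72, F7025 first. None of these 6 genes read above 5.38 on a Cm484 array. gar2 and piip2 missed the threshold without F7025 array 1 (adjusted p 0.1 to 0.152), piip2 without F7025 array 2 (adjusted p 0.0525), gar2 and piip2 without Cm484 array 1 (adjusted p 0.0838 to 0.117), and gar2 and piip2 without Cm484 array 2 (adjusted p 0.0907 to 0.113). The same followed from leaving out either F2 array for piip2 (adjusted p 0.0524).

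On the Cm484 side the widest gap was at PIP2-4, a plasma membrane aquaporin that lets water cross cells. It measured 2.60 and 2.61 on the F7025 arrays and 8.26 and 7.43 on the Cm484 arrays. Only F7025 was at the floor, since the other lines had means of 9.26 in F7033, 7.95 in F98902 and 8.73 in F2, and PIP2-4 was at least 14.3-fold higher in Cm484 (log2 difference -5.24 ± 0.31 SE, adjusted p = 1.06e-05). sbe1, starch branching enzyme I, gave 2.63 and 2.43 on the F7025 arrays and 6.96 and 7.26 on the Cm484 arrays, with F7025 again alone under 4 among means of 8.12 in F7033, 7.47 in F98902 and 8.63 in F2 (at least 8.65-fold higher in Cm484, log2 difference -4.58 ± 0.17 SE, adjusted p = 6.68e-07). phb3, a prohibitin of the inner mitochondrial membrane, gave 3.31 and 3.42 on the F7025 arrays and 6.86 and 6.77 on the Cm484 arrays (at least 7.05-fold higher in Cm484, log2 difference -3.45 ± 0.21 SE, adjusted p = 1.21e-05). The 3 other lines read 6.67 in F7033, 6.97 in F98902 and 7.39 in F2, so F7025 stood apart at all 3 of these genes. The opposite pattern appeared at fht1, the flavanone 3-hydroxylase of flavonoid synthesis. It gave 2.36 and 2.40 on the F7025 arrays and 5.01 and 6.03 on the Cm484 arrays and 2.37 in F7033, 2.33 in F98902 and 2.36 in F2, so Cm484 alone rose above the floor (at least 2.86-fold higher in Cm484, log2 difference -3.14 ± 0.30 SE, adjusted p = 0.000208).

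The rest of the 15 held stress, regulatory and cytoskeletal genes. hsp18f, a small heat shock protein gene, gave 4.36 and 3.93 on the F7025 arrays and 6.48 and 7.36 on the Cm484 arrays (6.86-fold higher in Cm484, adjusted p = 0.000354). mpao1, a polyamine oxidase that releases hydrogen peroxide in the wall, gave 8.47 and 7.43 on the F7025 arrays and 10.48 and 10.58 on the Cm484 arrays, and Cm484 lay above all other line means (5.97-fold higher in Cm484, log2 difference -2.58 ± 0.43 SE, adjusted p = 0.00443). m24, a MADS-box gene, gave 6.94 and 6.25 on the F7025 arrays and 8.85 and 8.86 on the Cm484 arrays, and both lines lay above the other 3 (4.79-fold higher in Cm484, adjusted p = 0.000775). The 2 small heat shock genes among the leaders thus pointed in opposite directions. brk1, a small protein of the complex that starts actin branching, gave 9.14 and 8.66 on the F7025 arrays and 10.49 and 10.29 on the Cm484 arrays (2.81-fold higher in Cm484, adjusted p = 0.0013). igl1, which releases indole from indole-3-glycerol phosphate, gave 5.91 and 6.09 on the F7025 arrays and 7.86 and 7.90 on the Cm484 arrays (3.67-fold higher in Cm484, adjusted p = 8.12e-05). SRP2B_542175 gave 4.89 and 4.90 on the F7025 arrays and 6.85 and 6.77 on the Cm484 arrays (3.78-fold higher in Cm484, adjusted p = 0.000142) from a probe set with shared probes, and LOC732777 gave 7.17 and 6.82 on the F7025 arrays and 8.38 and 8.66 on the Cm484 arrays (2.88-fold higher in Cm484, adjusted p = 0.0013). The remaining 4, cko2, cko3, gst30 and gln3, are described with their families below.

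**Figure D3:**
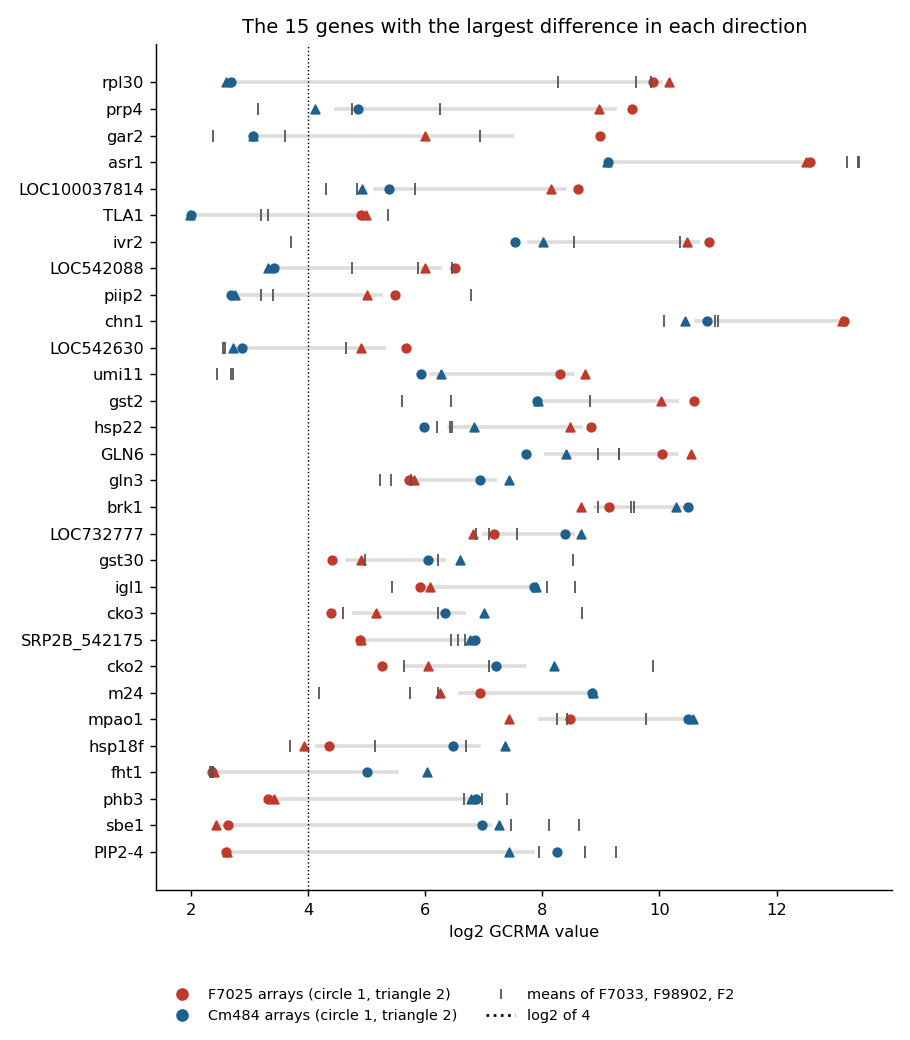
Log2 GCRMA values of the 15 named genes with the largest difference in each direction, per array of F7025 (red) and Cm484 (blue), with the means of the other 3 lines as ticks, grey bars joining the means of the pair and a dotted line at 4. For rpl30 and asr1 the Cm484 symbols lie away from every other line, and for PIP2-4, sbe1 and phb3 the F7025 symbols do.

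Genes of secondary wall cellulose were higher in F7025. Of 14 tested cellulose synthase and COBRA-like genes 4 were called, all higher in F7025 (28.6% called, against 17.9% of all probe sets), and the list's median difference was 0.51 against -0.05. These 4 were the 3 cellulose synthases of secondary walls and bk2, the COBRA-like protein whose loss makes maize stalks brittle. cesa10 measured 11.51 and 10.84 on the F7025 arrays and 9.49 and 9.71 on the Cm484 arrays, 2.99-fold higher in F7025 (log2 difference 1.58 ± 0.26 SE, adjusted p = 0.00453). cesa11 measured 11.51 and 10.73 on the F7025 arrays and 9.76 and 9.61 on the Cm484 arrays, 2.7-fold higher in F7025 (log2 difference 1.44 ± 0.27 SE, adjusted p = 0.00853), from a probe set with shared probes. CesA12 measured 12.04 and 11.80 on the F7025 arrays and 10.84 and 10.63 on the Cm484 arrays, 2.28-fold higher in F7025 (log2 difference 1.19 ± 0.20 SE, adjusted p = 0.00463). bk2 measured 10.76 and 10.03 on the F7025 arrays and 9.05 and 9.002 on the Cm484 arrays, 2.59-fold higher in F7025 (log2 difference 1.37 ± 0.35 SE, adjusted p = 0.0311). Cm484 had the lowest mean of the 5 lines at cesa10, cesa11 and bk2, and for CesA12 it was close to F98902 (10.74 against 10.74).

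None of the 9 cellulose synthases CesA-1 to CesA-9, the group known mainly from primary walls, was called, and neither was Bk2L3. Their differences ran from -0.45 at CesA-5 (8.77 and 8.47 against 8.97 and 9.16, adjusted p = 0.0545) to 0.84 at CesA-8 (9.31 and 8.23 against 7.59 and 8.28, adjusted p = 0.262). CesA-4 stood at 10.68 and 9.90 against 9.75 and 9.22 (adjusted p = 0.0895), CesA-2 at 10.81 and 10.03 against 9.65 and 9.90 (adjusted p = 0.161) and CesA-7 at 12.44 and 11.91 against 11.70 and 11.91 (adjusted p = 0.164). CesA-9 stood at 11.68 and 11.19 against 11.003 and 11.15, CesA-1 at 10.33 and 9.91 against 10.07 and 10.40, CesA-3 at 8.98 and 8.94 against 9.09 and 9.03, CesA-6 at 10.41 and 10.07 against 10.06 and 10.43 and Bk2L3 at 12.20 and 11.62 against 11.85 and 11.64, F7025 first throughout. The 2 F7025 arrays were not alike in this family: all 14 genes read higher on array 1 than on array 2, with a median gap of 0.55, while on the Cm484 arrays 6 of 14 did (median gap -0.17). Without F7025 array 1 the differences were 1.24 for cesa10, 1.05 for cesa11, 1.07 for CesA12 and 1.001 for bk2. Leaving out F7025 array 2 instead brought CesA-2, CesA-4 and CesA-7 past the threshold (adjusted p 0.0408, 0.0238 and 0.0162). Leaving out F7025 array 1 brought CesA-5 past it, on the Cm484 side (adjusted p = 0.0376). bk2 missed the threshold without F7025 array 1 (adjusted p 0.192), bk2 without Cm484 array 1 (adjusted p 0.115), and cesa11 and bk2 without Cm484 array 2 (adjusted p 0.0611 to 0.129). Calls were also lost on omitting either F2 array for bk2 (adjusted p 0.0543 to 0.0544).

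Of 4 tested genes of lignin monomer synthesis 2 were called, both higher in F7025 (8.51% of all probe sets were), and the median difference was 0.53. cncr1, cinnamoyl-CoA reductase, the first enzyme of the branch to lignin monomers, measured 12.04 and 11.81 on the F7025 arrays and 10.57 and 10.96 on the Cm484 arrays (2.23-fold higher in F7025, log2 difference 1.16 ± 0.19 SE, adjusted p = 0.00398). 4CL, 4-coumarate-CoA ligase, which feeds that branch, measured 12.32 and 11.95 on the F7025 arrays and 11.06 and 11.40 on the Cm484 arrays (1.87-fold higher in F7025, log2 difference 0.90 ± 0.20 SE, adjusted p = 0.0171). At both genes Cm484 had the lowest mean of the 5 lines, and F7025 was within the range of the others. pal3, a phenylalanine ammonia-lyase at the entry of the pathway, differed little at 13.05 and 13.03 against 13.01 and 13.14 (log2 difference -0.04 ± 0.09 SE, adjusted p = 0.822), and bm1, the cinnamyl alcohol dehydrogenase of the last step, stood at 12.50 and 12.15 against 12.19 and 12.14 (log2 difference 0.16 ± 0.13 SE, adjusted p = 0.434). LAC1, a laccase, ran against cncr1 and 4CL: it measured 5.68 and 6.003 on the F7025 arrays and 6.86 and 7.33 on the Cm484 arrays, 2.39-fold higher in Cm484 (log2 difference -1.25 ± 0.24 SE, adjusted p = 0.00965). F7025 had the lowest LAC1 mean of all lines, where the others were 7.02 in F7033, 7.14 in F98902 and 6.74 in F2. PER42, the 1 tested peroxidase, overlapped between the lines at 10.21 and 10.06 against 10.30 and 9.72 (adjusted p = 0.854). 4CL and LAC1 missed the threshold without F7025 array 1 (adjusted p 0.0697 to 0.112), 4CL without Cm484 array 1 (adjusted p 0.113), and LAC1 without Cm484 array 2 (adjusted p 0.0777).

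**Figure D4:**
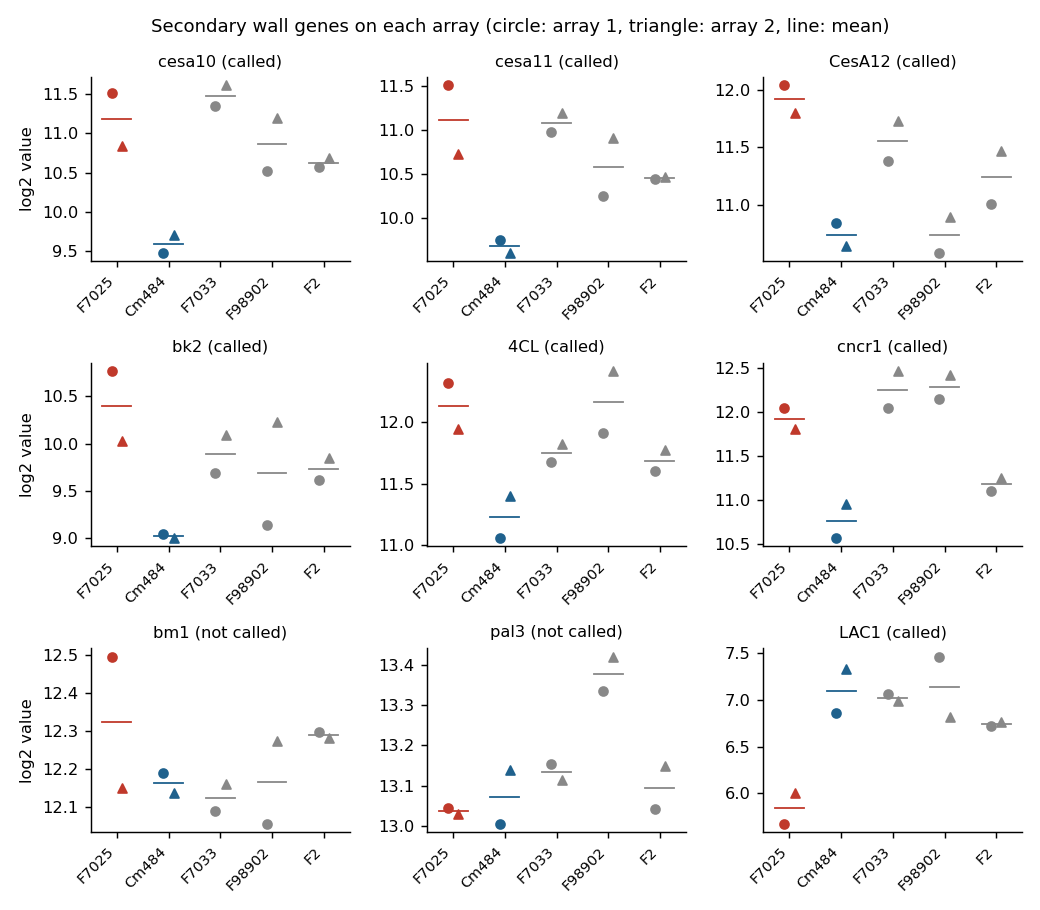
Log2 GCRMA values of 9 secondary wall genes on each of the 10 arrays, by line, with array 1 as circles, array 2 as triangles and the line mean as a bar (each panel has its own scale, which does not start at 0). Cm484 lies at the bottom for cesa10, cesa11, bk2, 4CL and cncr1, F7025 lies at the bottom for LAC1, and bm1 and pal3 were not called.

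Among other wall genes, pglcat8 was the 1 call of 4 nucleotide sugar and hemicellulose genes, at 10.95 and 10.37 against 9.70 and 9.91, 1.81-fold higher in F7025 (log2 difference 0.86 ± 0.22 SE, adjusted p = 0.0295). Its other 2 probe sets gave adjusted p = 0.0643 and 0.111. No gene of the 9 tested expansins, endotransglycosylases and structural wall proteins was called, although the median difference was 1.02. Expansins loosen walls during growth, and here the 2 F7025 arrays were far apart. expB4 measured 8.75 and 5.73 on the F7025 arrays and 4.44 and 5.21 on the Cm484 arrays (log2 difference 2.41 ± 0.996 SE, adjusted p = 0.133). EXPA5 measured 7.79 and 5.57 against 5.21 and 6.08, expA3 7.54 and 4.30 against 6.70 and 7.52 and expB6 7.37 and 5.89 against 5.13 and 4.38, F7025 first. expB7 measured 7.34 and 5.69 against 5.17 and 5.41, expB8 8.71 and 7.07 against 7.87 and 8.43 and expa1 11.68 and 10.62 against 9.85 and 10.40. All 7 expansins were higher on F7025 array 1 than on array 2, by 1.06 to 3.23. Without F7025 array 2, expB4 and expB7 passed the threshold (adjusted p 0.0208 and 0.00204), and expB6 did so without either F98902 array (0.0463 and 0.046). xet1, a xyloglucan endotransglycosylase, stood at 10.77 and 10.99 against 11.09 and 11.11, and prcw1, a proline-rich wall protein gene, at 14.001 and 13.94 against 14.08 and 13.88. pglcat8 missed the threshold without F7025 array 1, Cm484 array 1 or Cm484 array 2 (adjusted p 0.0819 to 0.162). pglcat8 missed it when the pair was fitted alone (adjusted p 0.0832). Among the other lines, the threshold was missed on leaving out either F2 array for pglcat8 (adjusted p 0.053 to 0.0532).

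The called tubulin genes were higher in F7025, unlike brk1, the actin branching gene above. Of 15 tested tubulin and actin-binding genes, a list without brk1, 4 were called, all higher in F7025 (26.7%, where 8.51% of all probe sets were called higher in F7025), and 13 of 15 differences were positive (median 0.20). tub5, a beta-tubulin, measured 12.70 and 12.49 on the F7025 arrays and 11.43 and 11.30 on the Cm484 arrays (2.34-fold higher in F7025, log2 difference 1.23 ± 0.12 SE, adjusted p = 0.000257), and its second probe set was called the same way. The beta-tubulin tub7 stood at 12.68 and 12.85 against 12.39 and 12.24, and the gamma-tubulins tubg1 and TUBG2, which nucleate microtubules, stood at 7.87 and 7.64 against 7.27 and 7.07 and at 5.67 and 5.52 against 4.85 and 4.10. The other probe set of tubg1 was not called (adjusted p = 0.0561). In the list of kinesins and a myosin, assembled after the values had been seen, 3 of 5 were called, all higher in F7025 (60.0%, against the same 8.51%). The kinesin krp6 measured 11.76 and 10.89 on the F7025 arrays and 9.70 and 9.73 on the Cm484 arrays (3.06-fold higher in F7025, log2 difference 1.61 ± 0.26 SE, adjusted p = 0.0041), kin15 7.80 and 7.08 against 6.53 and 6.05 and myo1 8.07 and 7.64 against 7.17 and 6.99. These genes too were higher on F7025 array 1 than on array 2, at 5 of 5 kinesin and myosin genes and 12 of 15 in the tubulin list. tubg1, TUBG2, kin15 and myo1 missed the threshold without F7025 array 1 (adjusted p 0.0875 to 0.199), tub7 and TUBG2 without F7025 array 2 (adjusted p 0.0527 to 0.0609), tubg1 and myo1 without Cm484 array 1 (adjusted p 0.0631 to 0.0936), and tub7, tubg1, TUBG2, kin15 and myo1 without Cm484 array 2 (adjusted p 0.113 to 0.176). The fit on the pair alone did not call tub7, tubg1, TUBG2, kin15 and myo1 (adjusted p 0.0799 to 0.102). Leaving out an array of another line did the same, namely either F7033 array for tubg1 and myo1 (adjusted p 0.0503 to 0.0536) and either F2 array for tubg1, TUBG2 and myo1 (adjusted p 0.055 to 0.064).

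Defence genes were the list with the highest median, 2.07 against -0.05 for all kept probe sets. Of 8 tested genes 6 were called, all higher in F7025 (75.0%, where 8.51% of all probe sets were called higher in F7025). Besides prp4, chn1 and umi11, pr5, a thaumatin-like protein, measured 10.37 and 10.47 on the F7025 arrays and 8.78 and 8.03 on the Cm484 arrays (4.05-fold higher in F7025, log2 difference 2.02 ± 0.24 SE, adjusted p = 0.000688). tps6, a terpene synthase, measured 5.79 and 6.08 against 4.64 and 3.36 (log2 difference 1.93 ± 0.56 SE, adjusted p = 0.0463), and sip1 measured 7.32 and 7.20 against 5.20 and 5.08 (log2 difference 2.12 ± 0.18 SE, adjusted p = 9.24e-05). A second probe set of sip1 gave a smaller difference, at 4.20 and 4.33 against 3.65 and 3.40 (adjusted p = 0.0241). prp2, at 7.03 and 4.22 against 4.20 and 4.52, and wip1, a wound-induced inhibitor gene, at 9.15 and 9.09 against 8.05 and 8.59, were not called (adjusted p = 0.461 and 0.24), and the arrays of the lines overlapped at prp2. The order of the lines was not the same at each gene: pr5 was as bright in F98902 (10.49) as in F7025, and tps6 was as bright in F2. tps6 missed the threshold without F7025 array 1, F7025 array 2 or Cm484 array 2 (adjusted p 0.124 to 0.237). On the 4 arrays of the pair alone tps6 missed the threshold (adjusted p 0.0576). The same followed from leaving out either F2 array for tps6 (adjusted p 0.0722 to 0.0726).

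Other defence chemistry went both ways. lox1, a lipoxygenase that oxidises linoleic and linolenic acid, measured 11.60 and 11.73 on the F7025 arrays and 9.25 and 9.83 on the Cm484 arrays (4.35-fold higher in F7025, log2 difference 2.12 ± 0.23 SE, adjusted p = 0.000424), and both of its probe sets were called. It was the 1 call toward F7025 among 9 jasmonate and lipoxygenase genes, where 8.51% of all probe sets were called higher in F7025. aoc1, allene oxide cyclase, was called higher in Cm484 by its brighter probe set (8.71 and 8.96 against 9.64 and 9.64, log2 difference -0.80 ± 0.19 SE, adjusted p = 0.0218) and higher in F7025 by its other 1 (8.40 and 7.91 against 7.29 and 7.15, adjusted p = 0.00724). No direction is therefore given for aoc1. In the list for benzoxazinoid synthesis, the pathway of maize defence hydroxamates, igl1 and bx6 were called higher in Cm484 out of 4 tested (9.37% of all probe sets were). Whether the indole released by igl1 enters this pathway was not tested. bx6, an oxygenase of the pathway, measured 8.98 and 8.90 on the F7025 arrays and 10.37 and 10.24 on the Cm484 arrays (2.57-fold higher in Cm484, log2 difference -1.36 ± 0.20 SE, adjusted p = 0.00247). Of 13 tested glutathione transferases 5 were called (38.5%, against 17.9% of all probe sets), gst2 and gst19 higher in F7025 and gst30, GST3 and GST39 higher in Cm484. gst30 stood at 4.41 and 4.90 against 6.04 and 6.60, GST3 at 7.22 and 7.05 against 8.43 and 8.42, GST39 at 6.68 and 7.03 against 7.51 and 7.34 and gst19 at 8.51 and 8.32 against 7.76 and 7.64. aoc1, gst19, gst30 and GST39 missed the threshold without F7025 array 1 (adjusted p 0.0546 to 0.198), aoc1, gst19 and GST39 without Cm484 array 1 (adjusted p 0.0691 to 0.19), and aoc1, gst19, gst30 and GST39 without Cm484 array 2 (adjusted p 0.0598 to 0.115). Fitted on the 4 arrays of the pair alone, gst19 and GST39 missed it too (adjusted p 0.0511 to 0.134). Calls were also lost on omitting either F7033 array for GST39 (adjusted p 0.0666) and either F2 array for GST39 (adjusted p 0.0675 to 0.0678).

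Heat shock, dehydration and antioxidant genes held 5 calls among 17 (29.4%, against 17.9% of all probe sets), with asr1 and hsp22 higher in F7025 and hsp18f, mpao1 and apx2 higher in Cm484. apx2, an ascorbate peroxidase that removes hydrogen peroxide, measured 7.92 and 8.16 on the F7025 arrays and 9.19 and 9.57 on the Cm484 arrays (2.52-fold higher in Cm484, log2 difference -1.33 ± 0.16 SE, adjusted p = 0.000681). Of 7 fermentation and alternative oxidase genes, a list assembled after the values had been seen, 5 were called (71.4%, against 17.9% of all probe sets). adh1, alcohol dehydrogenase, measured 10.99 and 10.66 on the F7025 arrays and 11.77 and 12.25 on the Cm484 arrays (2.27-fold higher in Cm484, log2 difference -1.18 ± 0.18 SE, adjusted p = 0.00282), and F7025 had the lowest mean of the 5 lines. pdc3, a pyruvate decarboxylase, stood at 10.62 and 10.41 against 11.23 and 11.87, and aldh2, an aldehyde dehydrogenase, at 7.94 and 8.10 against 8.83 and 9.52, both higher in Cm484. A second pyruvate decarboxylase gene, pdc2, was higher in F7025 at 5.31 and 5.40 against 3.70 and 3.76 (at least 2.55-fold, log2 difference 1.62 ± 0.16 SE, adjusted p = 0.000297). Its other probe set gave 6.64 and 6.42 in F7025 and 2.31 and 2.28 in Cm484, a wider gap. The alternative oxidase gene aox1_542074, for a mitochondrial enzyme that bypasses part of the respiratory chain, measured 4.55 and 4.48 on the F7025 arrays and 2.33 and 2.31 on the Cm484 arrays. F7025 alone reached 4 at this gene, where the other lines were 2.33 in F7033, 2.29 in F98902 and 2.34 in F2 (at least 1.43-fold higher in F7025, log2 difference 2.20 ± 0.17 SE, adjusted p = 5.13e-05). Both pdc2 and aox1_542074 passed the filter only through the F7025 arrays, which fixed their direction, and both count among the 5 calls. aldh2 missed the threshold without F7025 array 1 (adjusted p 0.065), pdc3 without F7025 array 2 (adjusted p 0.0542), and pdc3 without Cm484 array 2 (adjusted p 0.0848). pdc3 and aldh2 missed it when the pair was fitted alone (adjusted p 0.0548 to 0.0584).

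Carbon and nitrogen genes were called in unequal shares, where 17.9% of all probe sets were called. ivr2 was the 1 call among 11 sucrose genes (9.09%). Of 11 starch genes 3 were called (27.3%): sbe1 and Agp2_542072 were higher in Cm484 and bt2 was higher in F7025. bt2, a small subunit of ADP-glucose pyrophosphorylase, stood at 5.57 and 5.93 against 4.91 and 4.68 (log2 difference 0.95 ± 0.19 SE, adjusted p = 0.0113), and Agp2_542072 stood at 9.82 and 9.64 against 10.38 and 10.34 (log2 difference -0.63 ± 0.17 SE, adjusted p = 0.0379). Of 22 photosynthesis genes 2 were called (9.09%), with a median difference of 0.09. psan1, a photosystem I subunit, stood at 12.39 and 12.68 against 11.98 and 12.13 and TPT, the triose phosphate translocator, at 11.87 and 12.03 against 11.42 and 11.57, both higher in F7025, and a second probe set of TPT was not called (adjusted p = 0.31). Glutamine synthetases, which fix ammonium, split: GLN6 was higher in F7025, while gln3 at 5.73 and 5.80 against 6.94 and 7.43 (2.67-fold higher in Cm484, log2 difference -1.42 ± 0.20 SE, adjusted p = 0.00209) and gln1 at 7.70 and 8.12 against 8.95 and 9.08 (log2 difference -1.10 ± 0.26 SE, adjusted p = 0.0212) were higher in Cm484. NNR1, a nitrate reductase, stood at 7.10 and 7.12 against 7.97 and 7.75 (log2 difference -0.75 ± 0.22 SE, adjusted p = 0.0475). The nitrogen list, 4 of 9 called (44.4%), was assembled after the values had been seen. Agp2_542072, gln1 and NNR1 missed the threshold without F7025 array 1 (adjusted p 0.086 to 0.175), Agp2_542072, psan1, TPT and NNR1 without F7025 array 2 (adjusted p 0.0663 to 0.109), Agp2_542072, psan1, TPT, gln1 and NNR1 without Cm484 array 1 (adjusted p 0.0768 to 0.217), and bt2, Agp2_542072, psan1, TPT, gln1 and NNR1 without Cm484 array 2 (adjusted p 0.0606 to 0.132). The fit on the pair alone did not call bt2, psan1 and TPT (adjusted p 0.0561 to 0.116). Among the other lines, the threshold was missed on leaving out either F7033 array for Agp2_542072 and psan1 (adjusted p 0.0512 to 0.0632), either F98902 array for NNR1 (adjusted p 0.0516 to 0.052), and either F2 array for Agp2_542072, psan1 and NNR1 (adjusted p 0.0555 to 0.0636).

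Of 6 iron genes, a list assembled after the values had been seen, 4 were tested. All 4 were called higher in Cm484, where 9.37% of all probe sets were. This count is a description, since the list followed the values. nas1 and nas2 were under the filter, and ys1 passed it only through the Cm484 arrays, which fixed its direction. ys1, the transporter that takes up iron bound to phytosiderophores, measured 2.76 and 3.22 on the F7025 arrays and 4.69 and 4.03 on the Cm484 arrays (at least 1.28-fold higher in Cm484, log2 difference -1.37 ± 0.26 SE, adjusted p = 0.00864). DMAS1, which makes a phytosiderophore, measured 9.88 and 10.19 against 10.75 and 11.03 (log2 difference -0.86 ± 0.16 SE, adjusted p = 0.00824), and the ferritins fer1 and fer2, which store iron, measured 10.07 and 10.44 against 10.78 and 10.88 and 7.44 and 7.77 against 8.25 and 8.30 (adjusted p = 0.0177 and 0.0171). F7025 lay below all other lines at both ferritins, but not at ys1 or DMAS1, where F98902 was lower still. All 4 were lower on F7025 array 1 than on array 2. ys1, DMAS1, fer1 and fer2 missed the threshold without F7025 array 1 (adjusted p 0.0545 to 0.0914), fer1 and fer2 without Cm484 array 1 (adjusted p 0.0612 to 0.0703), and DMAS1, fer1 and fer2 without Cm484 array 2 (adjusted p 0.0671 to 0.106). On the 4 arrays of the pair alone ys1, fer1 and fer2 missed the threshold (adjusted p 0.0566 to 0.104).

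Of 20 tested aquaporins 3 were called (against 17.9% of all probe sets), in both directions. After PIP2-4, NIP3-1 was higher in Cm484 at 7.41 and 7.13 against 8.65 and 8.64 (2.59-fold higher in Cm484, log2 difference -1.38 ± 0.26 SE, adjusted p = 0.0085). PIP2-6 was higher in F7025 at 5.67 and 5.40 against 3.79 and 3.78 (at least 2.9-fold higher in F7025, log2 difference 1.75 ± 0.27 SE, adjusted p = 0.00327), and its mean was 6.57 in F7033 and 2.64 in F2. PIP2-4 and PIP2-6 each passed the filter through 1 line alone, which fixed their directions. The list's median difference was -0.04, against -0.05 for all kept probe sets. For NIP2-1 the brighter probe set was not called (8.94 and 8.999 against 9.12 and 9.67, adjusted p = 0.15), but its other 1 was called higher in Cm484 (7.01 and 7.75 against 8.51 and 8.71, log2 difference -1.23, adjusted p = 0.00886). A fit on the 4 arrays of the pair alone called 3 aquaporins higher in F7025 and 2 higher in Cm484. NIP3-1 missed the threshold without Cm484 array 2 (adjusted p 0.0535).

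Among the 24 tested hormone genes, 5 were called higher in Cm484 (as were 9.37% of all probe sets), 2 were called higher in F7025 and 17 were not called. Differences were positive at 10 and negative at 14. The calls toward Cm484 included the cytokinin genes cko2, cko3, RR9 and HP3. These were grouped by their calls, so no direction is given for cytokinin genes as a set. The cytokinin genes cko1, RR4, abph1 and ciszog1 did not pass the filter. cko2 and cko3, cytokinin oxidases that break the hormone down, measured 5.27 and 6.05 on the F7025 arrays and 7.21 and 8.20 on the Cm484 arrays and 4.39 and 5.16 against 6.33 and 6.996 (log2 difference -2.05 ± 0.40 SE, adjusted p = 0.00944 and log2 difference -1.89 ± 0.36 SE, adjusted p = 0.00872). cko3 was read by shared probes. The highest cytokinin oxidase values of all lines were those of F98902, 9.89 and 8.67. RR9, a response regulator, stood at 6.16 and 5.72 against 6.60 and 6.84 and HP3, a phosphotransfer protein of the same signalling chain, at 7.31 and 7.50 against 8.24 and 8.08 (adjusted p = 0.0265 and 0.0195). Ethylene synthesis went both ways, through its last enzyme: the ACC oxidase acco20 was higher in F7025 at 9.49 and 9.84 against 7.99 and 8.14 (3.03-fold higher in F7025, log2 difference 1.60 ± 0.29 SE, adjusted p = 0.00637), and ACO31 was higher in Cm484 at 6.33 and 6.36 against 7.11 and 7.54 (adjusted p = 0.044). an1, the first cyclase of gibberellin synthesis, was higher in F7025 at 5.83 and 5.99 against 4.43 and 5.09 (log2 difference 1.15 ± 0.25 SE, adjusted p = 0.015), and both lines were under the other 3 (7.47 in F7033, 8.72 in F98902 and 8.05 in F2). In all 7 of 24 tested hormone genes were called (29.2%, against 17.9% of all probe sets). cko2, cko3, HP3, ACO31 and an1 missed the threshold without F7025 array 1 (adjusted p 0.0567 to 0.168), RR9, ACO31 and an1 without F7025 array 2 (adjusted p 0.0508 to 0.0944), RR9, HP3, ACO31 and an1 without Cm484 array 1 (adjusted p 0.0647 to 0.118), and cko2, cko3, RR9, HP3 and ACO31 without Cm484 array 2 (adjusted p 0.0667 to 0.219). Fitted on the 4 arrays of the pair alone, RR9 and an1 missed it too (adjusted p 0.0628 to 0.0957). Leaving out an array of another line did the same, namely either F7033 array for ACO31 (adjusted p 0.0666 to 0.0669) and either F2 array for RR9 (adjusted p 0.0501 to 0.0503).

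Cell cycle and chromatin genes held 5 calls among 36 tested (13.9%, against 17.9% of all probe sets), all higher in Cm484. cdc2, the cyclin-dependent kinase that drives entry into division, measured 7.87 and 7.80 on the F7025 arrays and 9.17 and 8.99 on the Cm484 arrays (2.36-fold higher in Cm484, log2 difference -1.24 ± 0.16 SE, adjusted p = 0.00108). Its other probe set gave 4.11 and 2.89 in F7025 and 8.24 and 8.05 in Cm484. cycD2, a D-type cyclin, stood at 7.76 and 7.71 against 8.28 and 8.57 (log2 difference -0.69 ± 0.13 SE, adjusted p = 0.00848). Of chromatin genes, nfc104 stood at 4.73 and 4.98 against 5.99 and 5.72, the histone deacetylase HDA108 at 6.01 and 6.19 against 6.78 and 6.71 and the high mobility group gene HMGIY2 at 8.06 and 8.10 against 8.66 and 8.55. Both lines were under the other 3 at cycD2, HDA108 and HMGIY2. nfc104, HDA108 and HMGIY2 missed the threshold without F7025 array 1 (adjusted p 0.057 to 0.102), nfc104, HDA108 and HMGIY2 without Cm484 array 1 (adjusted p 0.0643 to 0.119), and cycD2, HDA108 and HMGIY2 without Cm484 array 2 (adjusted p 0.0637 to 0.0829). cycD2, HDA108 and HMGIY2 missed it when the pair was fitted alone (adjusted p 0.0669 to 0.0862).

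Of 27 tested regulators, a mixed list of KNOTTED, MYB, NAC, MADS-box and other transcription factor genes, 9 were called (33.3%, against 17.9% of all probe sets), 8 of them higher in Cm484 (as were 9.37% of all probe sets), and the median difference was -0.25. kn1, the homeobox gene that keeps meristem cells undifferentiated, measured 9.06 and 9.08 on the F7025 arrays and 9.69 and 9.69 on the Cm484 arrays (1.54-fold higher in Cm484, log2 difference -0.62 ± 0.10 SE, adjusted p = 0.00377). lg3, a related homeobox gene, measured 5.53 and 5.50 on the F7025 arrays and 6.52 and 6.40 on the Cm484 arrays (1.93-fold higher in Cm484, log2 difference -0.95 ± 0.16 SE, adjusted p = 0.00433), and F7025 was lowest of the lines at both. The leucine zipper gene ohp1 stood at 5.76 and 5.63 against 6.88 and 7.17 (log2 difference -1.33 ± 0.20 SE, adjusted p = 0.00298), and obf3.2, of the same class, at 5.18 and 5.80 against 6.40 and 6.27. The Dof gene MNB1a stood at 9.78 and 9.88 against 10.47 and 10.99. The MADS-box genes zap1 and m4 stood at 9.84 and 10.09 against 10.65 and 10.85 and 8.93 and 9.09 against 9.68 and 9.74, and m15 was the 1 regulator higher in F7025, at 9.59 and 9.69 against 9.19 and 9.20. Endoplasmic reticulum folding genes, a list assembled after the values had been seen, held 3 calls among 14 (21.4%). The chaperones bip1 and bip2 were higher in F7025 at 9.37 and 9.04 against 8.69 and 8.56 and 9.68 and 9.66 against 9.22 and 9.08, and the disulfide isomerase PDIL1-1 was higher in Cm484 at 8.76 and 9.07 against 9.33 and 9.66. obf3.2, MNB1a, m4, m15, bip1, bip2 and PDIL1-1 missed the threshold without F7025 array 1 (adjusted p 0.0563 to 0.251), MNB1a and m15 without F7025 array 2 (adjusted p 0.0545 to 0.0732), obf3.2, m15, bip1 and bip2 without Cm484 array 1 (adjusted p 0.0591 to 0.187), and obf3.2, MNB1a, m4, m15, bip1, bip2 and PDIL1-1 without Cm484 array 2 (adjusted p 0.0629 to 0.176). The fit on the pair alone did not call obf3.2, MNB1a, m15, bip1, bip2 and PDIL1-1 (adjusted p 0.0566 to 0.13). The same followed from leaving out either F7033 array for obf3.2, m15 and PDIL1-1 (adjusted p 0.0533 to 0.0739) and either F2 array for obf3.2, m15, bip1 and PDIL1-1 (adjusted p 0.0515 to 0.0755).

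**Figure D5:**
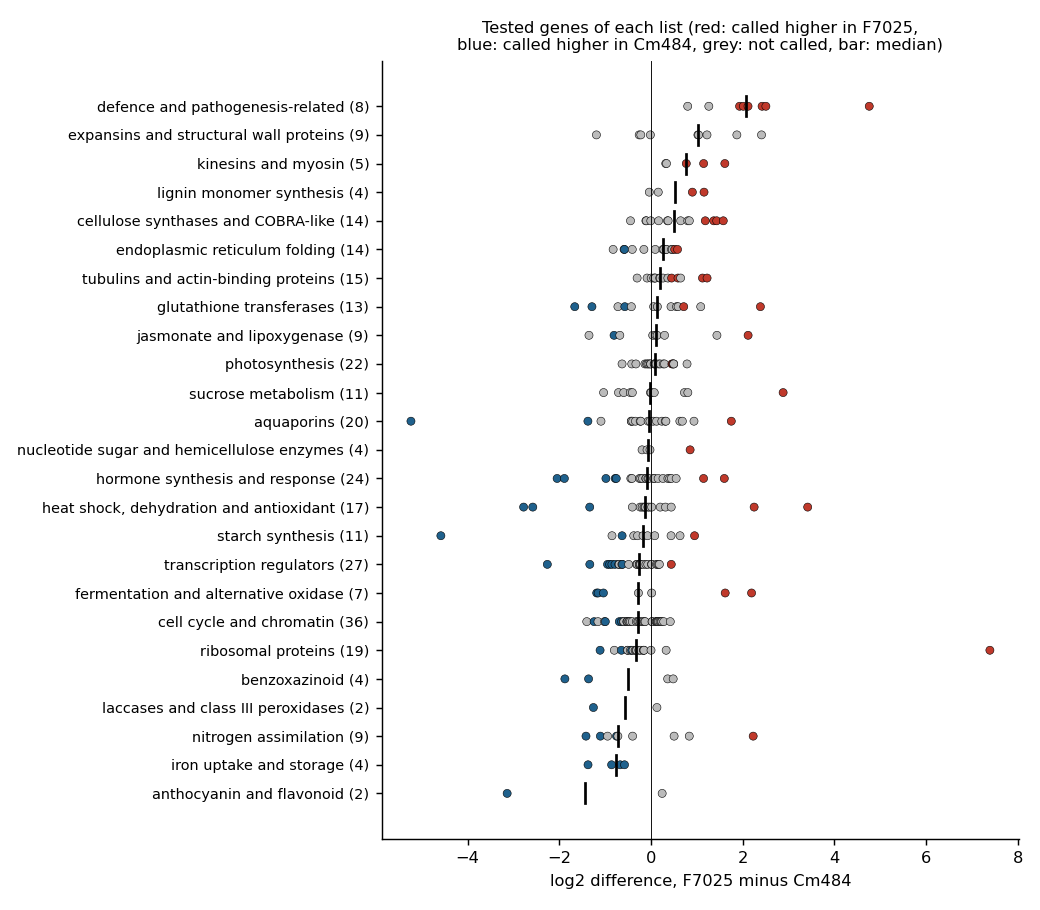
Log2 difference, F7025 minus Cm484, of every tested gene in each of 25 lists (number tested in brackets), with called genes in red or blue and the list's median as a black bar. Defence genes all lie right of 0, and the 4 called cellulose genes lie right of it. Iron genes, a list assembled after the values had been seen, all lie left of 0.

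Set among the other 3 lines, the called genes divided between the lines of the pair. Of the 147 called genes, F7025 alone lay outside the range of the means of F7033, F98902 and F2 at 46 (31.3%), and Cm484 alone at 30 (20.4%). Both lay outside at 48 (32.7%) and neither at 23 (15.6%). Over all 1856 called probe sets F7025 alone lay outside at 531 and Cm484 alone at 501. These shares are a description with no test, since the calls chose the genes. They were not computed over all kept probe sets, so they are not read as a trait of the called genes. Of 107 genes read by several kept probe sets, 11 had every probe set called the same way, 13 had only some called, 81 had none, and 2, aoc1 and mir3_541655, had calls in opposite directions. They are named for that result, seen in the values.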

How the data were processed

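Stem RNA of 5 maize lines was measured on 10 Affymetrix maize arrays, 2 per line. The deposited table gave log2 values for each probe set and array. The authors made them with GCRMA, per the submitters' processing notes. This method corrects background by probe sequence, makes arrays alike in distribution and summarises probes, which hides any change common to all genes of a line. The log2 scale was read from the values (1.35 to 14.6), and the GCRMA version is not given in the sources used here.

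From 17734 probe sets the 113 AFFX and 66 RPTR controls were left out. Probe sets at 4 or more on at least 2 of the 4 arrays entered a linear model in limma 3.58.1 under R 4.3.3 (lmFit, eBayes with a variance trend). The fit took all 10 arrays, line as the term and no block, with 5 residual degrees of freedom and 3.32 prior ones. Each contrast was adjusted by the Benjamini-Hochberg method, and adjusted p-values are those of this limma model or of a named variant of it. The procedure was tested on simulated data. The annotation names 1 gene for 1452 probe sets, several for 1 and none for 16102, and 1060 of 1108 genes were matched to the reference gene table (assembly Zm-B73-REFERENCE-NAM-5.0), whose synonyms give the names. The probe set with the highest mean over the 4 arrays stood for a gene. Named are the 15 genes with the largest difference in each direction, every called gene of 25 lists, and every tested gene of the lignin, laccase and peroxidase, cellulose and expansin lists. The members and lists were chosen with earlier results of these data known. Precision is limited by the number of arrays. Tables and plots used Python 3.11.15, pandas 2.3.3 and matplotlib 3.10.9.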

Additional observations from a re-analysis of the deposited data

How the results depend on the processing

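The count of 1856 called probe sets stayed within 1.5 times under the replicate block, quantile normalization, no filter, a filter at 6, no variance trend and array weights (1488 to 1829). A fit on the 4 arrays of the pair alone called 1057 probe sets (504 higher in F7025 and 553 in Cm484) and 92 named genes. A test against a difference of 0.5 (treat) called 602 (291 and 311) and 51 genes, a stricter question by construction. Leaving out the 3 arrays listed with 20 µg of RNA, an alternative chosen after seeing the data, called 691 (340 and 351) and 59 genes from 7 arrays. With 1 array left out, a lone array being assumed to vary like the other lines, counts ran from 892 to 2335 probe sets, 452 to 1018 higher in F7025, 440 to 1349 higher in Cm484 and 72 to 184 named genes. The correlation of the line means was 0.895 to 0.920 with 1 array left out, 0.975 with no filter and 0.873 with a filter at 6. Repetition numbers did not pair F7025 with Cm484, where the correlation of array differences was 0.0018. Between the other pairs of lines it was -0.389 to 0.400, over 0.1 at 5 of these 9. It was highest for Cm484 with F98902 (0.400), F98902 with F2 (0.378) and Cm484 with F2 (0.280). These are the 3 lines whose array 2 was listed with 20 µg of RNA, and a part of the RNA amount in this was not tested. The replicate block called 1829 probe sets and 156 named genes. ACO31, GST39 and obf3.2 missed the threshold with it (adjusted p 0.0519, 0.0522 and 0.0628). Directions turned at genes that were not called: with 1 array left out, bm1 ran from -0.0129 to 0.33, Bk2L3 from -0.12 to 0.46, EXPA5 from -0.0697 to 2.15, prcw1 from -0.114 to 0.0903, CesA-1 from -0.32 to 0.10, CesA-6 from -0.18 to 0.18, expA3 from -2.81 to 0.43, expB8 from -1.08 to 0.57, pal3 from -0.102 to 0.0317 and PER42 from -0.16 to 0.42. Without the 20 µg arrays pal3 was 0.0317, PER42 -0.159, CesA-1 0.0548, CesA-6 0.179 and expB8 0.0271. Under quantile normalization CesA-6 was 0.0303 and prcw1 0.0179. With the mean of a gene's probe sets, aoc1, a called gene, turned to 0.0649 and expB8 to 0.184. Of the 96 called genes under the naming rule given above, 37 were called under every setting that tested them. Not every setting tested all of these: aox1_542074 and TLA1, for example, read under 6 on each array of the pair. They did not enter the filter at 6. Called genes named outside that rule were not part of the count of 37. The cause of these shifts was not tested.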

Other observations

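Genes outside the lists also separated the lines. Of the 51 called genes that the naming rule left out, 30 were higher in F7025 and 21 in Cm484, and those given here were chosen after their values were seen. Of the cytosolic glyceraldehyde phosphate dehydrogenases, enzymes of glycolysis, gpc3 and gpc4 were called higher in F7025, while GAPC1 was not called and had the higher mean in Cm484 (12.47 and 12.46 against 12.85 and 12.71, adjusted p = 0.0731). gpc3 measured 10.77 and 9.92 on the F7025 arrays and 8.72 and 9.14 on the Cm484 arrays (adjusted p = 0.00778), and gpc4 measured 10.89 and 10.08 against 8.92 and 9.38 (adjusted p = 0.00991). Array 1 of F7025 was the higher of its 2 arrays at both genes. Neither gene kept its call whichever of the 4 arrays of the pair was left out. Further probe sets of gpc3 gave adjusted p = 0.0232, also higher in F7025, and 0.0507, not called. glct1, a plastid glucose transporter, stood at 9.39 and 9.20 in F7025 and 7.53 and 7.46 in Cm484 (3.49-fold, adjusted p = 4.84e-05). vpp1, a proton-pumping pyrophosphatase of the vacuole, stood at 10.96 and 11.06 against 10.12 and 9.95 (adjusted p = 0.000481). rbohB, an NADPH oxidase, stood at 8.41 and 8.38 against 7.12 and 7.56 (adjusted p = 0.00414). On the Cm484 side, hcf106, part of the thylakoid protein export machinery, stood at 5.15 and 5.23 in F7025 and 6.39 and 6.27 in Cm484 (adjusted p = 0.00105). F7025 was the line apart at hcf106, since the means were 6.18 in F7033, 6.13 in F98902 and 6.30 in F2. VTE5, phytol kinase of vitamin E synthesis, stood at 8.71 and 8.77 against 9.70 and 9.64 (adjusted p = 0.000521).

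mir3_541655 was called in both directions. Its brighter probe set gave 10.85 and 10.83 in F7025 and 9.84 and 10.06 in Cm484 (adjusted p = 0.00205), and the other gave 7.53 and 7.70 against 9.24 and 10.06 (adjusted p = 0.000822).

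Most called probe sets had no gene name here, 1685 of 1856. The largest differences lay among them. Zm.16911.1.A1_at gave 2.56 and 3.59 in F7025 and 11.70 and 11.23 in Cm484, at least 177.0-fold higher in Cm484 (adjusted p = 1.45e-06), and the other 3 lines had means of 11.02 to 12.33. Zm.16759.1.A1_at gave 10.13 and 10.24 in F7025 and 2.41 and 2.62 in Cm484, at least 72.9-fold higher in F7025 (adjusted p = 8.34e-08), and Cm484 alone was under 4. Zm.15307.1.A1_at gave 10.20 and 10.10 against 2.54 and 2.53 (adjusted p = 3.01e-07), and of the other lines F2 alone was bright, at 8.75.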
